A study of Rattus norvegicus with 9 samples.

Results

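Acsm3, Acsm5 and Pdilt are 3 genes that lie close to each other on rat chromosome 1, and they were followed here rat by rat in the frontal cortex after early life stress and electroacupuncture. They were taken by name from a table of 37209 genes, because earlier results of these same counts had shown high values in the stressed rats. The levels that led to this choice are therefore given as a description, without a test. Total RNA of 9 male Wistar rats aged 14 weeks had been depleted of rRNA and sequenced, with 3 rats per group. The Control rats (A1, A2 and A6) had stayed with their mothers. The MS group (B3, B4 and B6) went through maternal separation for 4 h per day from postnatal day 1 to 21. The MS+EA rats (C3, C10 and C16) had the same separation and then received electroacupuncture at the points GV20 and GV29 every other day from day 61 to 81. The MS+EA rats were under isoflurane during treatment, and the Control and MS rats received this anaesthesia without needles. No sham electroacupuncture group is among these samples, so needling and current cannot be told apart. The labels do not say which rats shared a litter, and p-values measure the spread between these rats.

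Acsm3 and Acsm5 encode acyl-CoA synthetases of the medium-chain family. These enzymes of the mitochondrial matrix couple a fatty or carboxylic acid to coenzyme A, the step that commits it to oxidation or to conjugation. The family is known mainly from liver and kidney, and Acsm3 was first described in rats as SA, a gene with high kidney expression in hypertensive strains. Pdilt encodes a protein disulfide isomerase-like protein of the endoplasmic reticulum. It is known from the testis, where it works as a chaperone with calmegin in sperm maturation. None of the 3 is used as a marker of cortical cells. In bulk tissue a change in the RNA per cell and a change in the number of cells that make it cannot be told apart.

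The promoter windows of the 3 genes are shown because their RNA levels moved together across the rats. Each window holds 300 bases, from 250 before to 50 after the annotated start, and was taken from RefSeq for the GRCr8 assembly. All 3 genes had a window in the RefSeq table. The windows are chr1:183564402-183564701 on the plus strand for Acsm3, chr1:183302259-183302558 on the plus strand for Acsm5 and chr1:183299973-183300272 on the minus strand for Pdilt. Capitals mark every match, on either strand, to 5 short motifs. These are the TATA box with the letters TATAAA, the box named for its letters CCAAT, the nuclear receptor half-site AGGTCA, the steroid receptor half-site AGAACA and the E-box CACGTG.
Acsm3: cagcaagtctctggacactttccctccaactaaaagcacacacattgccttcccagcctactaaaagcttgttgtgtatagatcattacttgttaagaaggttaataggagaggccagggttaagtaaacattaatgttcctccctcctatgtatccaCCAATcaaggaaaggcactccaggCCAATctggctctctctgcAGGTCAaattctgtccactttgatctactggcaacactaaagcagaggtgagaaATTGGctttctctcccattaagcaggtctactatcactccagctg
Acsm5: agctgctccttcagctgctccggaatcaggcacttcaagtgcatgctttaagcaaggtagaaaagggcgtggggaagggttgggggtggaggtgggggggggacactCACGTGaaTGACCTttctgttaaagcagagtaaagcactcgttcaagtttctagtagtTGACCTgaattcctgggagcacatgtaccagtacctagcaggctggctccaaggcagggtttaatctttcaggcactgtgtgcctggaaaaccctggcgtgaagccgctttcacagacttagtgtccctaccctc
Pdilt: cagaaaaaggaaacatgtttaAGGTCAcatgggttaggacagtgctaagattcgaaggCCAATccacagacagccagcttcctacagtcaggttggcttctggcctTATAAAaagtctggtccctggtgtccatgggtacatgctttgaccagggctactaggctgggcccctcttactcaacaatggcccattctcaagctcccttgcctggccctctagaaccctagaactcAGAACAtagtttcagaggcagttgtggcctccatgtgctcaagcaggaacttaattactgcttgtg

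AGGTCA was the one of these motifs that all 3 windows held. It was found in the Acsm3 window with its first base 49 bases before the start, in the Acsm5 window on the opposite strand at 135 and 85 bases before the start, and in the Pdilt window at 229 bases before the start. Of 33469 rat promoter windows of this length, 16.2% held AGGTCA on either strand. The Acsm3 window held CCAAT 3 times, at 92 and 68 bases before the start and on the opposite strand at position 6 after it. The Pdilt window held CCAAT once, at 192 bases before the start, and 37.5% of all windows held this motif. CACGTG was found in the Acsm5 window only, at 143 bases before the start, against 6.42% of all windows. TATAAA, held by 14.2% of all windows, and AGAACA, held by 20.7%, were found in the Pdilt window only, at 144 and 16 bases before the start. No match overlapped another. The GC content was 44.7% for Acsm3, 53.0% for Acsm5 and 49.7% for Pdilt, against a median of 51.7% over all windows. These matches describe letters in the reference and were not measured in the rats.

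The sum of counts per rat was between 12479905 and 19007907, and the MS+EA rats had the 3 lowest sums. After removal of genes with few counts, 16837 genes were tested, among them all 3 members. The lowest member value was 10 counts, for Pdilt in the Control rat A1, above the 3 counts taken as the floor (0.161 to 0.238 CPM depending on the rat, where CPM is the count scaled to one library size for all rats). Markers of excitatory neurons were read beside the tissue label, without a marker particular to the frontal cortex. Slc17a7, the vesicular glutamate transporter of excitatory cortical neurons, was at 1225 to 1635 CPM, and Camk2a, a kinase of the same neurons, was at 1664 to 2541 CPM over the 9 rats.

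To see how Acsm3 expression differed between the groups, its level was read in every rat. In the Control rats Acsm3 had 12, 24 and 12 counts (A1, A2 and A6), which are 0.642, 1.46 and 0.746 CPM. The 3 MS rats showed 249, 127 and 278 counts for B3, B4 and B6, which are 14.5, 7.94 and 16.7 CPM. In the MS+EA rats it had 17, 96 and 79 counts (C3, C10 and C16), which are 1.18, 6.43 and 6.28 CPM. Every MS rat was above every other rat, C10 and C16 were in between, and C3 was within the range of the Control rats. The mean level was 0.951 ± 0.447 CPM in Control, 13.1 ± 4.56 CPM in MS and 4.63 ± 2.99 CPM in MS+EA rats (SD, n = 3 each).

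Acsm5, the other acyl-CoA synthetase, had more counts in every rat. In the Control rats Acsm5 had 102, 83 and 58 counts, or 5.46, 5.06 and 3.61 CPM. In the MS rats it had 698, 326 and 576 counts, or 40.7, 20.4 and 34.6 CPM. In the MS+EA rats it had 81, 272 and 423 counts, or 5.62, 18.2 and 33.6 CPM. Here C3 was again next to the Control rats, whereas C16 reached the level of B6 and was above B4. The mean level was 4.71 ± 0.975 CPM in Control, 31.9 ± 10.4 CPM in MS and 19.2 ± 14.0 CPM in MS+EA rats (SD, n = 3 each). The coefficient of variation was 73.2% among the MS+EA rats and 20.7% among the Control rats.

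Pdilt, which shares no protein family with the other two, had the same order of group means. In the Control rats Pdilt had 10, 23 and 16 counts, or 0.535, 1.40 and 0.995 CPM. In the MS rats it had 145, 60 and 151 counts, or 8.46, 3.75 and 9.08 CPM. In the MS+EA rats it had 23, 66 and 71 counts, or 1.60, 4.42 and 5.64 CPM. B3 and B6 were above all other rats, B4 was below C10 and C16, and C3 was just above the highest Control rat. The mean level was 0.978 ± 0.434 CPM in Control, 7.10 ± 2.91 CPM in MS and 3.89 ± 2.08 CPM in MS+EA rats (SD, n = 3 each).

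**Figure D1:**
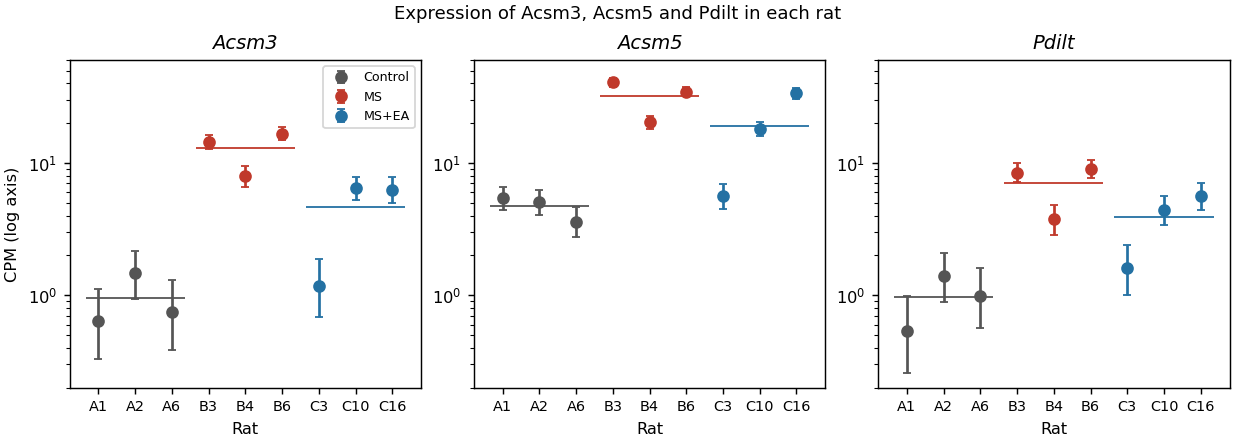
Level of Acsm3, Acsm5 and Pdilt in CPM on a log axis for each of the 9 rats, with points for rats, bars for the exact 95% Poisson interval of the count and horizontal lines for group means. B3 and B6 are the highest rats in all 3 panels, and C3 sits with the Control rats at 1.18, 5.62 and 1.60 CPM.

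The counting error of each value was set beside these levels. The exact 95% Poisson intervals, which cover counting error only, divided the order of the rats into steps. For Acsm3, the intervals of B6 (14.8 to 18.8 CPM) and B3 (12.8 to 16.4 CPM) overlapped and lay above that of B4 (6.62 to 9.45 CPM). The intervals of B4, C10 (5.21 to 7.86 CPM) and C16 (4.97 to 7.83 CPM) overlapped each other. C3 (0.687 to 1.89 CPM) overlapped all 3 Control rats and lay below C10 and C16. For Acsm5, C16 (30.5 to 37.0 CPM) overlapped B6 (31.9 to 37.6 CPM), B4 (18.2 to 22.7 CPM) overlapped C10 (16.1 to 20.5 CPM), and C3 (4.46 to 6.98 CPM) overlapped each Control rat. For Pdilt, B4 (2.86 to 4.83 CPM), C10 (3.42 to 5.63 CPM) and C16 (4.41 to 7.12 CPM) overlapped, and C3 (1.01 to 2.39 CPM) overlapped each Control rat except A1 (0.257 to 0.984 CPM). The gap between C3 and the other MS+EA rats was therefore larger than counting error for each of the 3 genes.

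Between MS and Control rats, the question was what early separation left in the adult cortex. The Acsm3 mean was 13.7 times the Control mean, with a fitted log2 fold change of 3.78 (SE 0.535). The Acsm5 mean was 6.78 times the Control mean (log2 fold change 2.75, SE 0.479), and the Pdilt mean was 7.26 times (log2 fold change 2.87, SE 0.486). By size of log2 fold change they ranked 7, 30 and 27 among the 16837 genes. In single rats, Acsm3 was 15.3, 8.36 and 17.6 times the Control mean in B3, B4 and B6. For all 3 genes the MS rats were above every Control rat, a pattern that 10% of all tested genes showed in this direction. Since the members were chosen on these values, nothing follows from that count. In the whole table, 4 genes (0.0238% of those tested) passed both thresholds of edgeR's quasi-likelihood test, which were 0.05 for the adjusted p and 1.5 for the fold change in either direction.

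Markers of other cell types were read in the same rats. The summed level of 4 red blood cell genes (Hba1, Hba2, Hbb and Alas2, the globins and the first enzyme of heme synthesis) was 93.7 to 198 CPM in Control and 221 to 304 CPM in MS rats, without overlap. All 4 had an unadjusted p under 0.05 upward and 0 passed both thresholds, with a median log2 fold change of 0.90 against 0.00 over all genes. Of all tested genes, 10.6% had an unadjusted p under 0.05 in this comparison, in either direction. B4, the lowest MS rat for all 3 members, had the highest blood sum, 304 CPM. The sum of 4 endothelial genes was 72.1 to 85.6 CPM in Control and 91.5 to 104 CPM in MS rats. All 5 oligodendrocyte genes had negative log2 fold changes, from -0.40 to -0.19 with a median of -0.24, and their sums overlapped (1950 to 3020 CPM in Control and 1680 to 2720 CPM in MS rats). None of the 5 had an unadjusted p under 0.05. The sums for interneurons (480 to 518 and 474 to 617 CPM), astrocytes (2090 to 2540 and 2140 to 2500 CPM), microglia (203 to 231 and 194 to 217 CPM) and ependymal cells (7.12 to 8.52 and 6.49 to 15.9 CPM) overlapped between Control and MS rats as well. The part of these cell types in the levels of the members was not tested.

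The genes are known from other organs, and markers of those organs were read as well. Of 8 testis germ cell genes, 5 (Prm1, Prm2, Tnp1, Tnp2 and Acrv1) were at 0 counts in all 9 rats. Their summed level was 7.09 to 9.94 CPM in Control, 7.11 to 8.76 CPM in MS and 6.92 to 7.98 CPM in MS+EA rats, with calmegin (Clgn) as the highest gene. Of 6 kidney tubule genes Aqp2 was at 0, and the sum was 11.7 to 18.3, 12.9 to 19.1 and 12.6 to 20.4 CPM in the same order, with the endocytic receptor gene Lrp2 as the highest. Of 6 liver genes Tat was at 0, and the sum was 3.66 to 4.97 CPM in Control, 0.938 to 7.22 CPM in MS and 0.833 to 1.75 CPM in MS+EA rats. The 7 choroid plexus genes, with Otx2 at 0, summed to 2.68 to 4.88, 3.21 to 13.8 and 1.75 to 3.54 CPM. The germ cell, kidney tubule and choroid plexus sums overlapped between all groups, and the liver sums overlapped except between Control and MS+EA rats. The part of these organs in the levels of the members was not tested.

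Between MS+EA and MS rats, the question was what electroacupuncture changed in separated rats. The Acsm3 mean of the MS+EA rats was 0.355 times that of the MS rats (log2 fold change -1.50, SE 0.452), and the groups did not overlap. Over all tested genes, 9.6% were lower without overlap in this comparison. The Acsm5 mean was 0.600 times that of the MS rats (log2 fold change -0.75, SE 0.430), and the Pdilt mean was 0.548 times (log2 fold change -0.88, SE 0.427). For these 2 genes the groups overlapped, with C16 above B4 for both. The size of the difference rested on single rats. Without C3 the log2 fold change was -1.03 for Acsm3, -0.30 for Acsm5 and -0.49 for Pdilt, and without C16 it was -1.77, -1.42 and -1.23. For Acsm5 the SD of the MS+EA rats was larger than the difference between the group means, and for Pdilt it was smaller. In the whole table, 3 genes (0.0178%) passed both thresholds. The endothelial sum was 74.7 to 90.9 CPM in the MS+EA rats, below the 91.5 to 104 CPM of the MS rats. The excitatory neuron genes Slc17a7 (1225 to 1337 CPM) and Camk2a (1664 to 1867 CPM) were also below their MS values (1436 to 1498 and 2059 to 2231 CPM), and the part of these cell types was not tested. All 5 oligodendrocyte genes had positive log2 fold changes, from 0.37 to 0.58 with a median of 0.45. An unadjusted p under 0.05 was reached by 1 of them, against 12.4% of all tested genes in either direction, and 0 passed both thresholds. C3, whose member levels were next to Control, had the highest oligodendrocyte sum of the 9 rats, 3910 CPM, against 1890 CPM in C10, 2850 CPM in C16 and 1680 to 2720 CPM in the MS rats. Its part was not tested either. In the MS+EA rats the other sums were 477 to 633 CPM for interneurons, 2000 to 2770 CPM for astrocytes, 172 to 221 CPM for microglia and 5.63 to 9.78 CPM for ependymal cells.

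Between MS+EA and Control rats, the question was what remained after treatment. The mean of the MS+EA rats was 4.87 times the Control mean for Acsm3 (log2 fold change 2.28, SE 0.560), 4.07 times for Acsm5 (2.01, SE 0.484) and 3.98 times for Pdilt (1.99, SE 0.502). In single rats, Acsm3 was 1.24 times the Control mean in C3, 6.77 times in C10 and 6.61 times in C16. Acsm5 was 1.19, 3.87 and 7.14 times the Control mean in the same rats, and Pdilt 1.63, 4.52 and 5.77 times. The groups overlapped for Acsm3, where C3 was below A2. They did not overlap for Acsm5 and Pdilt, which 13% of all tested genes also showed upward in this comparison. Without C16 the log2 fold change of Acsm5 was 1.34. In the whole table, 230 genes (1.37%) passed both thresholds. The comparison shares its Control rats with the first and its MS+EA rats with the second, so the 3 are not independent. The blood sum of the MS+EA rats was 207 to 303 CPM, above that of the Control rats, and C3 had 207 CPM with member levels next to Control; the part of blood was not tested.

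How the 3 genes varied together was followed next. B3 and B6 held the first 2 places for every member and C3 was the lowest of the 6 separated rats for every member. Over the 9 rats, Pearson's r of log2 CPM was 0.975 for Acsm3 and Pdilt, 0.960 for Acsm3 and Acsm5, and 0.942 for Acsm5 and Pdilt, with Spearman's rho of 0.917, 0.850 and 0.917. After the group means were taken out, r was 0.932, 0.861 and 0.774. These values describe pairs of genes counted in the same libraries, and the rats fell into a low and a high set.

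**Figure D2:**
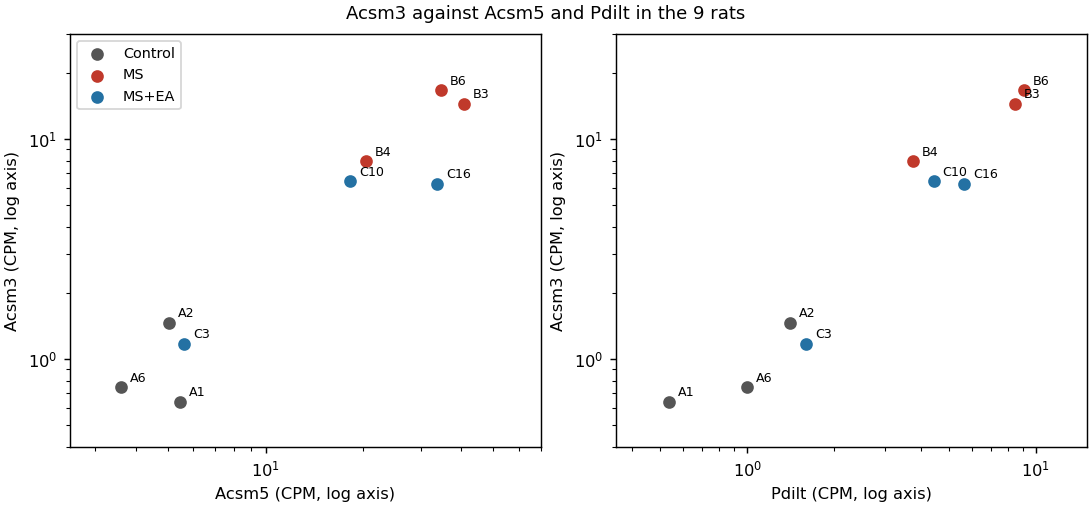
Acsm3 level against Acsm5 (left) and Pdilt (right) in CPM on log axes, with 1 point per rat coloured by group. C3 lies next to the Control rats and C10 lies next to B4 in both panels, and r over the 9 rats is 0.960 and 0.975.

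The proportion between the members was not the same in all groups. The count of Acsm3 divided by that of Pdilt was 1.2, 1.04 and 0.750 for A1, A2 and A6, 1.72, 2.12 and 1.84 for B3, B4 and B6, and 0.739, 1.45 and 1.11 for C3, C10 and C16. The observed ratio of Acsm3 to Pdilt was thus higher in the MS rats than in any other rat. The counting error of these ratios was not computed, and both genes had only 10 to 24 counts in the Control rats. Acsm3 divided by Acsm5 was 0.118 to 0.289 in Control, 0.357 to 0.483 in MS and 0.187 to 0.353 in MS+EA rats. Pdilt divided by Acsm5 was 0.098 in A1 and 0.168 to 0.284 in the other 8 rats, without an order of the groups. A ratio of counts within a rat does not depend on its depth, but it depends on gene length, so only the ratios of different rats can be compared and not the levels of different genes.

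The neighbourhood was then read in gene order, as RefSeq gives it for GRCr8. The starts shown above for Pdilt and Acsm5 lie 2.49 kb from each other, and the genes are read in opposite directions, away from each other's start. The start of Acsm3 lies 262 kb beyond that of Acsm5. The order from Pdilt to Acsm3 holds 10 annotated genes, namely Pdilt, Acsm5, Acsm2, RGD1559600, Acsm1, Acsm4, Thumpd1, LOC134483776, Eri2 and Acsm3. Of these, 9 are in the table and 5 passed the filter. The 4 genes in the table that did not pass it had few or no reads, and LOC134483776 was not analysed here. Acsm2 (listed as Acsm2a) and Acsm4 had 0 counts in all 9 rats, Acsm1 had at most 2 counts in a rat, and RGD1559600 had at most 13.

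Thumpd1 and Eri2, which lie between Acsm5 and Acsm3, were expressed in every rat. Thumpd1, an adapter of tRNA acetylation, had a mean of 59.6 ± 2.80 CPM in Control, 60.7 ± 4.94 CPM in MS and 67.2 ± 7.05 CPM in MS+EA rats (SD, n = 3 each). Its log2 fold changes were 0.03 (MS relative to Control, SE 0.0912), 0.15 (MS+EA relative to MS, SE 0.0914) and 0.17 (MS+EA relative to Control, SE 0.0914), with edgeR adjusted p of 0.942, 0.542 and 0.286. Eri2, an exonuclease gene next to Acsm3, had 17.7 ± 2.66 CPM in Control, 14.6 ± 1.30 CPM in MS and 20.1 ± 2.78 CPM in MS+EA rats. Its log2 fold changes in the same order were -0.28, 0.47 and 0.19, with edgeR adjusted p of 0.515, 0.253 and 0.472. Both genes therefore passed the test in none of the 3 comparisons, and the sign of the Eri2 values was opposite to that of the members between MS and Control and between MS+EA and MS rats.

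In RefSeq for GRCr8 the gene models overlap, which could bear on how reads were assigned. The reads were mapped to Rnor_6.0, and whether the models of that build overlap in the same way was not checked. Besides the start shown above, RefSeq has Pdilt transcripts with starts farther upstream. The whole Pdilt model therefore spans Acsm5 and the genes up to Eri2, on the strand opposite to Acsm5, and ends before Acsm3. The Acsm3 model overlaps that of Eri2, on opposite strands. The strand setting of the counting is not given in the sources used here either. Whether reads of Pdilt and Acsm5, or of Acsm3 and Eri2, were told apart where models overlap is therefore not known. Thumpd1 and Eri2 overlap the Pdilt model too, at the levels given above. The Acsm3 and Pdilt models do not overlap.

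The neighbours were taken as the genes between the members, the 10 annotated genes on each side and a list of named genes somewhat farther out, such as Crym, Tmc7 and Syt17, which does not hold every gene of that wider stretch. Besides the members, 29 of them were in the table, 18 passed the filter, and 0 passed both thresholds in any of the 3 comparisons by edgeR or by DESeq2. An unadjusted p under 0.05 was reached by 0 genes upward and 3 downward in MS relative to Control, by 2 and 1 in MS+EA relative to MS, and by 0 and 3 in MS+EA relative to Control. Over all tested genes the shares at this level were 10.6%, 12.4% and 22.5%, in both directions together. The median log2 fold changes of the neighbours were -0.08, 0.09 and 0.00, against 0.00, 0.00 and 0.01 over all genes. Their values ran from -0.78 to 0.28 in the first comparison, from -0.30 to 0.83 in the second and from -0.49 to 0.36 in the third. The ends of these ranges were Exnef (now Rexo5, an RNA exonuclease, -0.78), LOC102550985 (0.83) and Crym (a thyroid hormone-binding crystallin, -0.49). Crym was 122 ± 10.6 CPM in Control, 94.4 ± 8.27 CPM in MS and 86.6 ± 18.96 CPM in MS+EA rats (SD, n = 3 each). Its edgeR adjusted p in MS+EA relative to Control was 0.0459, with a fold change below 1.5. An adjusted p under 0.05 was reached by 5.4% of all genes in that comparison.

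**Figure D3:**
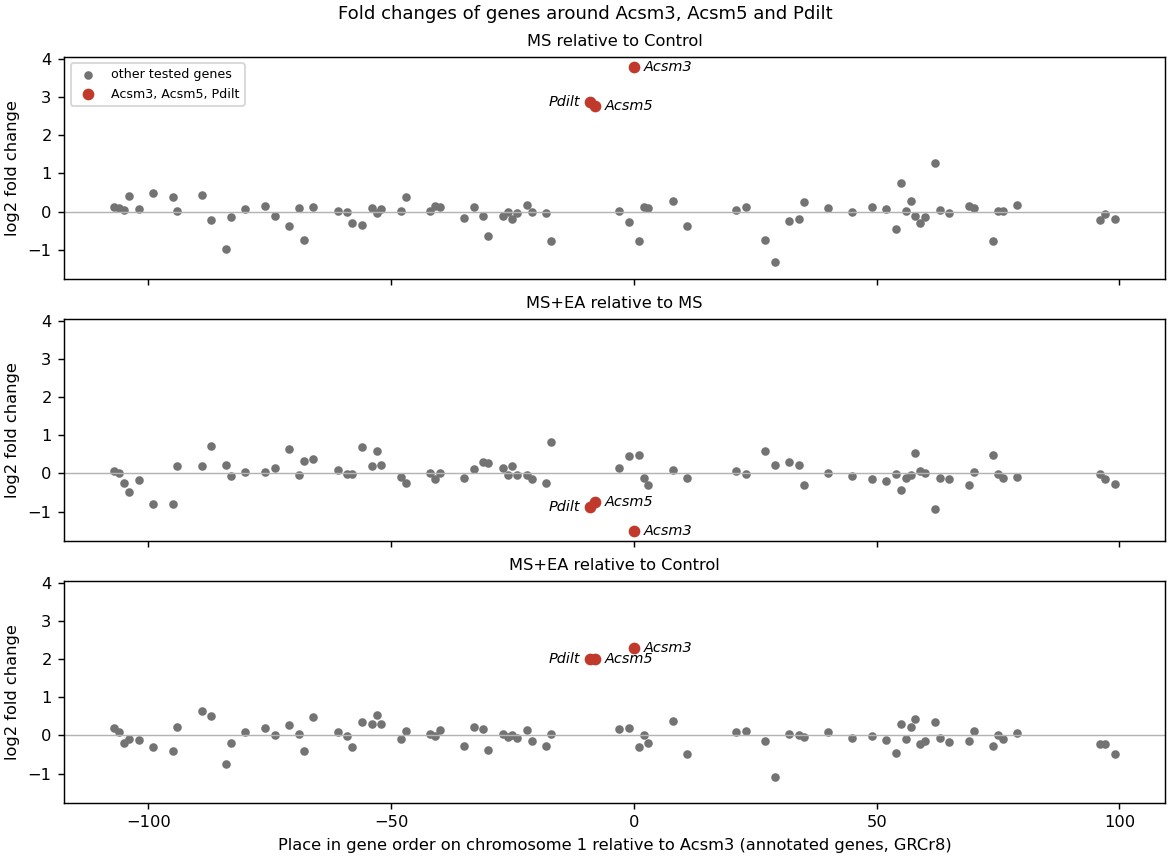
Log2 fold change of each tested gene against its place in the RefSeq gene order around Acsm3, with 1 panel per comparison, the 3 members in red and 80 other tested genes in grey. In the top panel the members lie at 2.75 to 3.78, above every other gene of the window, the highest of which is at 1.27.

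The 11 neighbours that did not pass the filter had at most 14 counts in a rat. Umod, the kidney gene of uromodulin that lies on the far side of Pdilt, had 1, 0 and 0 counts in Control, 4, 7 and 6 in MS and 1, 1 and 1 in MS+EA animals. Zp2, an egg coat gene, had 5, 6 and 7 counts in Control, 0, 1 and 0 in MS and 8, 14 and 1 in MS+EA rats. Both were named after their values were seen and are too low for a test. In a wider window of 100 annotated genes on each side, 80 genes besides the members were tested. Of these, 0, 0 and 1 passed both thresholds in the 3 comparisons in turn, against 0.0238%, 0.0178% and 1.37% of all tested genes. The 1 gene was Far1, a fatty acyl-CoA reductase, with a log2 fold change of 0.65 in MS+EA relative to Control. The window's medians were 0.01, 0.00 and 0.00, and its values ran from -1.32 (Sdr42e2) to 1.27 (Chp2) in MS relative to Control.

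Acyl-CoA synthetases other than the members were read to see whether related enzymes moved as well. Of 23 such genes in the table, 16 were tested and 0 passed both thresholds in any comparison by edgeR or DESeq2. The 23 included Acsm1, Acsm2a and Acsm4 of the neighbourhood, which did not pass the filter. In MS relative to Control, 1 had an unadjusted p under 0.05 upward and 1 downward, and the median log2 fold change was -0.02, with a range of -0.28 to 0.48. The highest was Acss3, a short-chain synthetase, with 4.11 ± 0.846 CPM in Control and 5.74 ± 1.23 CPM in MS rats (adjusted p = 0.481 by edgeR). At an unadjusted p under 0.05, 0 were upward and 3 downward in MS+EA relative to MS (median -0.05), and 1 and 3 in MS+EA relative to Control (median -0.08). The shares of all tested genes at this level were 10.6%, 12.4% and 22.5% in the 3 comparisons, in both directions together. Acsl4, which activates arachidonic acid, was 180 ± 10.03 CPM in Control, 235 ± 26.1 CPM in MS and 245 ± 41.1 CPM in MS+EA rats, with an edgeR adjusted p of 0.0396 in MS+EA relative to Control (log2 fold change 0.45). Slc27a4, a fatty acid transport protein with synthetase activity, was 86.4 ± 6.99 CPM in Control and 68.4 ± 2.76 CPM in MS+EA rats (log2 fold change -0.34, edgeR adjusted p = 0.0279). Both fold changes were below 1.5.

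The enzymes that use acyl-CoA downstream were read from a list of 38 fatty acid oxidation genes, of which 34 were tested. By edgeR 0 passed both thresholds in any comparison. In MS relative to Control, 0 had an unadjusted p under 0.05 upward and 1 downward, which was Cpt1c, a brain form of carnitine palmitoyltransferase. The median was 0.05 and the range was -0.39 to 0.27, with the liver form Cpt1a at the lower end (-0.39, edgeR adjusted p = 0.716). The count was 1 upward and 0 downward in MS+EA relative to MS (median -0.06), and 2 and 2 in MS+EA relative to Control (median -0.03). The highest value of both was that of Acad11, an acyl-CoA dehydrogenase, at 5.90 ± 0.342 CPM in Control, 6.05 ± 1.21 CPM in MS and 9.18 ± 1.73 CPM in MS+EA rats. The fitted log2 difference was 0.60 between MS+EA and MS (edgeR adjusted p = 0.267). Between MS+EA and Control it was 0.64 (edgeR adjusted p = 0.0719). DESeq2 called Acad11 in the latter comparison, in which edgeR called 1.37% of all tested genes.

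Relatives of Pdilt were read from a list of 24 protein disulfide isomerase family genes, of which 20 were tested. By edgeR and DESeq2 0 passed both thresholds in any comparison. In MS relative to Control 5 (Erp44, Tmx3, Tmx4, Dnajc10 and Ero1l) had an unadjusted p under 0.05 upward and 0 downward, and the median log2 fold change was 0.12 with a range of -0.32 to 0.38. MS+EA relative to MS gave 1 upward and 4 downward (median -0.08), and MS+EA relative to Control gave 4 and 3 (median 0.03). Over all tested genes the shares at this level were 10.6%, 12.4% and 22.5% in the 3 comparisons, in both directions together. Tmx3, a membrane-bound thiol oxidase, was 76.9 ± 3.17 CPM in Control, 99.9 ± 7.48 CPM in MS and 102 ± 6.79 CPM in MS+EA rats (SD, n = 3 each). Its edgeR adjusted p was 0.108 in MS relative to Control (log2 fold change 0.38) and 0.0148 in MS+EA relative to Control (0.41). Erp44, which retains client proteins in the early secretory pathway, had an edgeR adjusted p of 0.0395 in MS+EA relative to Control (log2 fold change 0.31). These fold changes were below 1.5. The Pdilt mean was 7.26 times the Control mean in MS rats and 3.98 times in MS+EA rats. Since Pdilt was chosen on its values, nothing follows from this difference to its relatives.

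**Figure D4:**
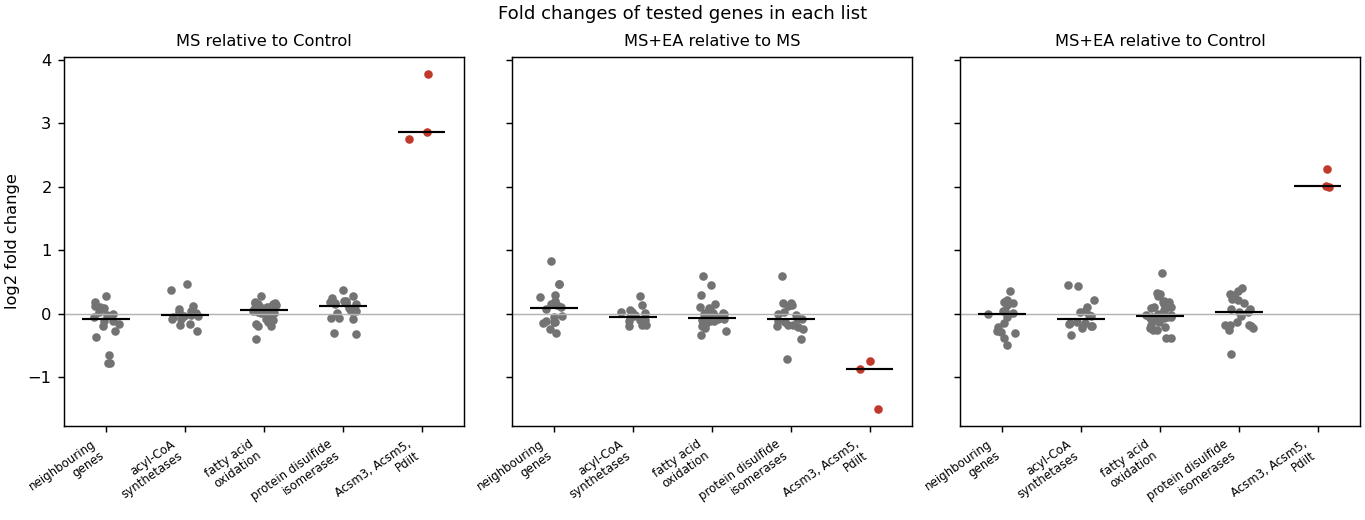
Log2 fold change of each tested gene of the neighbourhood, of 3 gene lists and of the members in the 3 comparisons, with 1 point per gene and a line at the median of each list. The medians of the neighbours and lists lie between -0.08 and 0.12, and the members lie at 2.75 to 3.78 in MS relative to Control.

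The genes whose level was most like that of each member over the 9 rats were listed by Pearson's r of log2 CPM. For Acsm3 these were Pdilt (0.975), Acsm5 (0.960), Nrip3 (0.943), Abcd2 (0.942) and Zfp367 (0.941). For Acsm5 they were Nek7 (0.961), Acsm3 (0.960), Kcmf1 (0.955), Nrip3 (0.948) and the mitochondrially encoded ATP6 (0.948). For Pdilt they were Acsm3 (0.975), Nrip3 (0.969), Zfp367 (0.954), Acsm5 (0.942) and Ugp2 (0.939). The members thus stood among the 5 genes most like each other in every case except Pdilt for Acsm5 by this measure. By Spearman's rho, or after the group means were taken out, no member was among the 5 genes most like another. Values of r above 0.9 were reached by 22, 14 and 16 genes for Acsm3, Acsm5 and Pdilt. Without the 2 rats farthest from the median, r over the genes listed stayed between 0.879 and 0.977.

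Nrip3 appeared in all 3 lists. It lies on chromosome 1 as well, 140 annotated genes from Pdilt. Its level was 188, 198 and 203 CPM in Control, 277, 236 and 277 CPM in MS and 205, 266 and 270 CPM in MS+EA animals. As for the members, C3 was the lowest of the separated rats and close to the Control rats. The size of the difference was much smaller, with a log2 fold change of 0.42 in MS relative to Control, -0.09 in MS+EA relative to MS and 0.33 in MS+EA relative to Control (edgeR adjusted p of 0.148, 0.742 and 0.0768). Abcd2, a peroxisomal transporter of very long-chain acyl-CoA, was at 71.7, 71.3 and 69.1 CPM in Control, 82.8, 81.1 and 86.8 CPM in MS and 73.5, 75.7 and 80.1 CPM in MS+EA animals. Its order of groups was that of Acsm3, with a log2 fold change of 0.24 in MS relative to Control (edgeR adjusted p = 0.186). Nrip3 and Abcd2 were listed because their levels were like those of the members over these same rats. Nothing follows from the order of rats and groups they share with the members, or from their p-values. The correlations describe 9 libraries and were not tested.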

How the data were processed

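Frontal cortex RNA of 9 rats was measured by rRNA-depleted RNA-seq. Per the labels and the paper's methods, the authors filtered the reads for quality, mapped them with HISAT2 2.0.4 to Rnor_6.0 and deposited whole-number counts per gene without normalization. The counting program, its strand setting and the treatment of reads with several locations are not given in the sources used here. Lengths were not given, so levels were not compared between genes.

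Groups were taken from the labels. Counts were normalized by TMM and filtered by filterByExpr (minimum count 10), and edgeR 4.0.16 in R 4.3.3 fitted 1 mean for each group over the 9 rats. Genes were tested with the quasi-likelihood F test and Benjamini-Hochberg adjustment over 16837 genes. The thresholds were 0.05 for the adjusted p and 1.5 for the fold change. An SE was obtained from a log2 fold change and its F statistic, as the absolute value over the root of F. CPM used the TMM library sizes, and log2 CPM had a prior count of 1. The procedure was run on simulated counts with the same spread for every gene (biological coefficient of variation 12.7%). Within groups the coefficient of variation of the members was 20.7% to 73.2%, so that run does not cover genes that vary as they do. DESeq2 1.42.0, other normalizations, filters and fits, and the omission of each rat were tried as alternatives. Tables and plots used Python 3.11.15, pandas 2.3.3 and matplotlib 3.10.9.

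The members and gene lists were chosen with earlier results of these data known. Named were the members, all genes between them, the called or most changed gene of each list and the 5 genes most like each member. Other genes with an adjusted p under 0.05 or an unadjusted p under 0.05 in a list were named after their values were seen. Gene order, promoters and older symbols came from RefSeq for GRCr8. No coordinates were converted between builds. Of the markers of excitatory neurons, Slc17a7 and Camk2a are the ones reported here.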

Additional observations from a re-analysis of the deposited data

How the results depend on the processing

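No paired analysis was possible because each group holds other animals and any pair of groups shares fewer than 2 replicate numbers. The log2 fold changes of the 3 members kept their sign in all 135 repeats. In MS relative to Control they ran from 3.55 to 4.22 for Acsm3, 2.54 to 2.99 for Acsm5 and 2.56 to 3.22 for Pdilt. In MS+EA relative to MS they ran from -1.83 to -1.03, -1.42 to -0.30 and -1.23 to -0.49, and in MS+EA relative to Control from 1.95 to 2.75, 1.34 to 2.45 and 1.63 to 2.37. The ends of these ranges all came from omitting a rat. The counts of called list genes were 0 and stayed at 0 except in MS+EA relative to Control. Without a fold change threshold they were 1 for the neighbours (Crym), 2 for the acyl-CoA synthetases (Acsl4 and Slc27a4) and 2 for the protein disulfide isomerase family (Erp44 and Tmx3). With DESeq2 the fatty acid oxidation list had 1 (Acad11), and with a rat omitted the neighbours had 0 to 1, the 1 being Crym without C10. Of the 5 genes most like a member, Spearman's correlation kept 0 for Acsm3, 2 for Acsm5 and 2 for Pdilt, and deviations from the group means, chosen after seeing the data, kept 0, 0 and 0, so these names, the members among them, depend on the measure.

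The counts over all genes were repeated after seeing the data. In MS relative to Control the 4 genes became 207 with every gene of at least 1 count, 70 with DESeq2, 11 with the 6 rats compared alone and 2 to 22 with a rat omitted (2 without A1 or A2, 9 without C3, 10 without C10 and 22 without B3). In MS+EA relative to MS the 3 genes became 72 with at least 1 count, 0 with at least 10 counts in every rat, 6 with DESeq2, 1 with the 6 rats alone and 1 to 4 with a rat omitted (1 without A1 or C16). In MS+EA relative to Control the 230 genes became 469 with at least 1 count, 910 without a fold change threshold and 71 to 304 with a rat omitted (71 without A1 and 121 without C10). The cause of these changes was not tested. Member counts of 10 to 24 in the Control rats for Acsm3 and Pdilt limit the precision of their fold changes.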
